A study of Mus musculus with 12 samples.

Results

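Homologous recombination and the Fanconi pathway were represented by 39 genes: the BRCA proteins and recombination mediators, the break-sensing and end-resection factors, the Fanconi core complex with its substrate pair, the checkpoint kinases, junction nucleases, and 3 genes of alternative end joining and PARP signalling. They were given as a list of symbols by a rule that uses no measured value, although the list was drawn up with earlier results of these data known, and were matched to the Ensembl identifiers of the count table. All 39 were found among 49671 genes, and all 39 passed the filter on low counts among the 17812 genes tested.

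Mouse brain tissue that had been fixed in formalin and embedded in paraffin gave 12 RNA-seq libraries, 3 from each of 4 groups, in a study of how mutant IDH1 affects glioma formation and of which glioma subtype the tumours resemble. The 3 tumour groups are labelled IDH1_R132H (mutant IDH1), IDH1WT (wild-type IDH1) and PDGFA (the platelet-derived growth factor ligand). Tumour-bearing mice carried N::TVA, a transgene for the avian TVA receptor, together with homozygous floxed alleles that include Cdkn2a and Atrx. Normal brain came from mice of that floxed genotype labelled TVA negative, so these alleles were shared by controls and tumours. The labels do not spell out the driver of the transgene, give no age, and leave unstated if PDGFA was also delivered to the IDH1 tumours. Libraries are numbered within a group in accession order, which pairs nothing, and nothing in the labels says that they came from separate animals, so p-values measure the spread between these libraries.

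As background, homologous recombination repairs a DNA break by copying the sister chromatid. Broken ends are sensed and cut back, BRCA proteins load a recombinase on the exposed strand, translocases drive strand invasion, and nucleases or helicases resolve the joined molecules. The Fanconi pathway unhooks crosslinks between DNA strands at stalled forks: a core complex ubiquitinates the FANCD2 and FANCI pair, and the repair is completed by recombination. Because a sister chromatid is the template, many of these genes are known to be expressed in S and G2 phase, and most neurons of the adult brain do not cycle. E2F factors, which bind promoters of many replication and repair genes, are a known route to that phase dependence.

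Promoter sequences of the members were searched for letters of that kind. RefSeq promoter windows on GRCm38.p6, from 250 bases before to 50 after the annotated start, were matched for 30 of the 39 members in 32 windows, and Exo1, Fancd2, Nbn, Rad50, Rad51d, Rad54b, Rbbp8, Wrn and Xrcc2 have no window here. E2F site letters (TTTCCCGC, TTTGGCGC, TTTCGCGC or TTTGCCGC on either strand) occurred in 7 of 32 member windows, or 21.9%, against 2.26% of 32851 windows in the table. The 4 stretches shown are the 250 bases before the start of 4 members that hold such letters and differ in expression: Bard1 and Chek2 rose in tumours, Topbp1 had a higher estimate that was not called, and Fancg had an estimate near 0. Each is written 5′ to 3′ on the strand of the gene, and capitals mark the E2F letters or their reverse complement.
Bard1: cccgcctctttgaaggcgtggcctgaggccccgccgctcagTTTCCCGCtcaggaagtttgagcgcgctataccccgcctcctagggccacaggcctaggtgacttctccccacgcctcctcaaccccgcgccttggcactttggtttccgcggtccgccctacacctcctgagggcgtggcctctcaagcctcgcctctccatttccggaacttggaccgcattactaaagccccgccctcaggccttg
Chek2: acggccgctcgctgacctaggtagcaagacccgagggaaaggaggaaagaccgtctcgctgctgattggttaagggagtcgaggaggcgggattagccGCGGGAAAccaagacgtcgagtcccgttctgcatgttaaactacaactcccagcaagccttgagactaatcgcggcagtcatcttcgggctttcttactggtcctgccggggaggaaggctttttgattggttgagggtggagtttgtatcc
Topbp1: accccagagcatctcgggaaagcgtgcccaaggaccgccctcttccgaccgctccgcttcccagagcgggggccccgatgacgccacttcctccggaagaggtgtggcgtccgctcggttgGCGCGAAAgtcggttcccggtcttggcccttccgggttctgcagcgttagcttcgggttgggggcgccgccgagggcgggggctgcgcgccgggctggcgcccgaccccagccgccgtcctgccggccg
Fancg: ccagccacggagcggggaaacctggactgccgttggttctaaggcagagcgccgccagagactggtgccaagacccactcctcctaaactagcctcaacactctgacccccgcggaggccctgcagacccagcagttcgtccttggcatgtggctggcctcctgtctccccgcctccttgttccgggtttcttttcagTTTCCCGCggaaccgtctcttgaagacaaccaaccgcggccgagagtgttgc
With the first base of each stretch counted as -250, the capitals span -209 to -202 for Bard1 (chr1:71102973-71103222, minus strand), -152 to -145 for Chek2 (chr5:110839733-110839982, plus strand), -129 to -122 for Topbp1 (chr9:103305077-103305326, plus strand) and -52 to -45 for Fancg (chr4:43010302-43010551, minus strand). None of these capitals shares a base with the other 2 motifs searched, CHR (TTTGAA or TTCGAA) and the CCAAT box (CCAAT). Of the windows of members called higher in tumours, 2 of 9 held the E2F letters (22.2%), as did 5 of 23 windows of members not called (21.7%). Rad51c and Rad54l have more than 1 window, so windows are not separate genes. By gene, the E2F letters were found for 6 of 30 members, against 704 of 27025 genes. They were found for 2 of 8 called members and 4 of 22 members not called. The CCAAT letters stood in 17 of 32 member windows (53.1%, against 37.4% of all windows), which is 16 of 30 genes. The CHR letters stood in 4 of 32 (12.5%, against 19.2%). The CCAAT letters stood in 6 of 9 windows of called members (66.7%) and 11 of 23 windows of members not called (47.8%). For the CHR letters these were 2 of 9 (22.2%) and 2 of 23 (8.7%). Differences between called members and those not called were not tested for any motif. A match describes letters in a window and is not a measured binding site.

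Library totals ranged from 6507923 to 14277395 counts. The third IDH1_R132H library stood apart, with 46.1% of its counts in 186 ribosomal-RNA-like loci against 2.9% to 19.5% in the other libraries. The first PDGFA library stood apart by its cell markers, with the lowest summed level of astrocyte markers (937 CPM, against 3261 to 6088 in the other tumours) and the highest of myelin markers (10934 CPM). Normal brains 1 and 2 were closer to each other than to normal brain 3, but differed by more than counting noise (chi-square per gene 2.47). Whole-gene counts of Atrx stood at 212 to 299 CPM in tumours and 262 to 336 CPM in normal brain, which does not show whether the floxed part was deleted, and Cdkn2a was under 2 CPM in every library. Levels are CPM, counts scaled by library size with TMM factors, positions of genes are GRCm38 from GENCODE M21, and a member is called where edgeR's quasi-likelihood test gave a Benjamini-Hochberg adjusted p under 0.05 over all 17812 genes.

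Against normal brain, the recombination and Fanconi genes that rose in tumours were Brca1, Bard1, Rad54l, Brip1, Exo1, Fanca, Fanci, Chek2 and Eme1, whose mean levels were between 3.67-fold and 17.3-fold of normal brain in the fit. These 9 of 39 members were called higher, beside a background of 3.71% of all tested genes (661 genes), and 0 were called lower (background 1.5%). At an unadjusted p under 0.05 the edgeR counts were 23 higher (background 13.3%) and 1 lower (background 10.3%), the latter being Xrcc3. The 9 tumour libraries lay wholly above the 3 normal brains for 12 members (background 4.67%) and wholly below for 0 (background 2.84%). The 12 were the called members other than Bard1, joined by Rad51ap1, Blm, Fancd2 and Polq. Over all 39 members the median log2 fold change was 0.71, against -0.01 over all tested genes, with 33 point estimates above 0 and 6 below. DESeq2 called 17 members higher (background 8.17%), and limma voom with sample weights 23 higher and 1 lower (backgrounds 16.8% and 16.9%). Without the filter on low counts edgeR called 16 higher (background 3.32%, or 1409 of 42503 genes). That share takes in genes the filter leaves out, whereas all 39 members passed it. It is therefore not comparable with the other backgrounds here, which are shares of the filtered genes. DESeq2, edgeR without the filter and voom each added Brca2, Chek1, Fancd2, Polq, Rad51ap1, Rad54b and Topbp1 to the called members. DESeq2 and voom also added Blm. When any 1 normal brain was left out, edgeR called 0 members and at most 3 of all genes. The edgeR adjusted p of the 9 members was then 0.082 to 0.19. In bulk tissue, fewer cells of a type and less RNA per cell cannot be told apart.

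**Figure D1:**
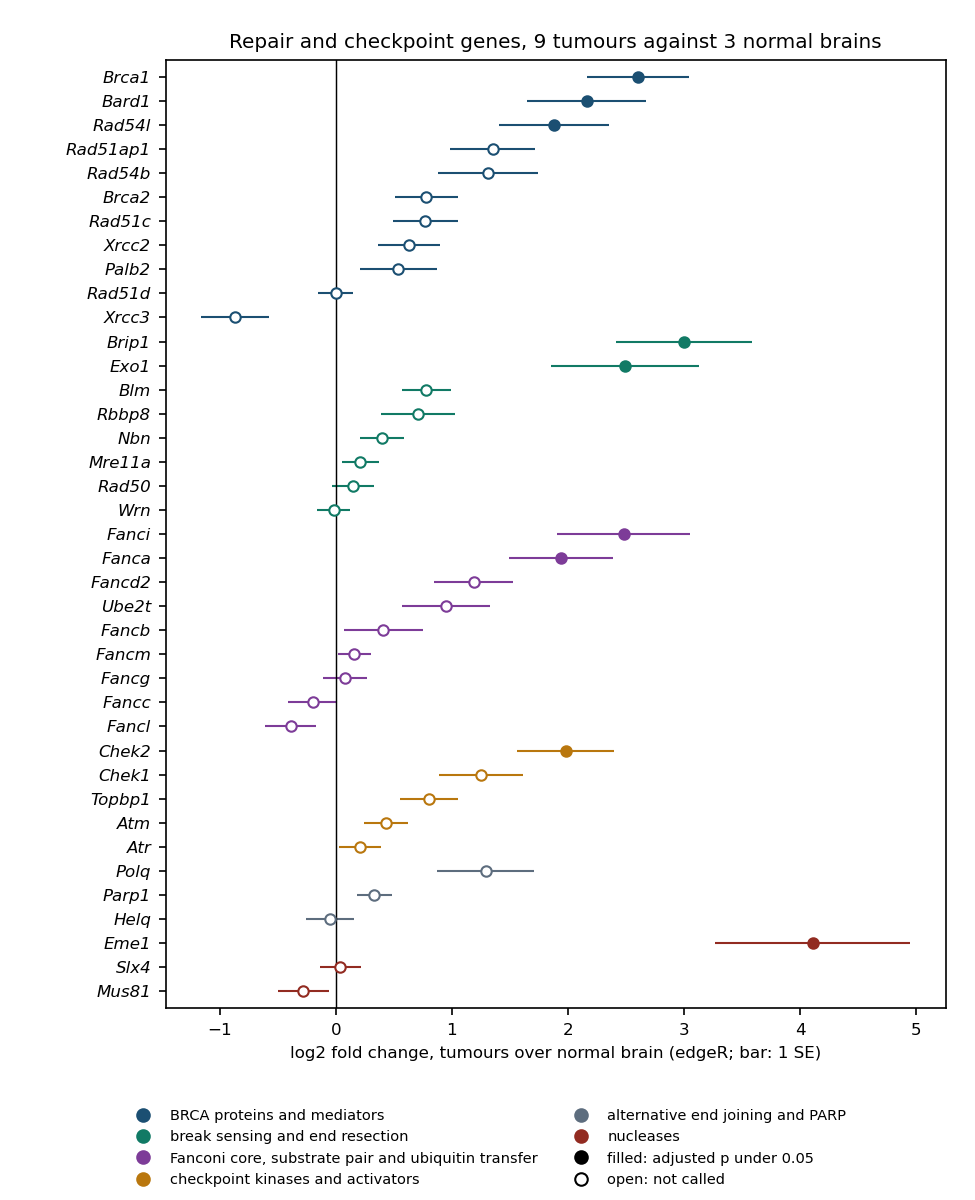
Log2 fold change of all 39 members in the 9 tumour libraries against the 3 normal brains (x axis, edgeR estimate with an SE back-calculated from its test). There is 1 row per gene, grouped by role, with filled points for the 9 called members. Brca1, Brip1 and Eme1 lie far to the right, while Rad51d, Wrn, Slx4 and Helq sit near 0.

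Among the BRCA proteins and mediators, 3 of 11 were called higher, 8 reached an unadjusted p under 0.05 upward, and the median log2 fold change was 0.78. Brca1 (ENSMUSG00000017146, chr11:101488764-101551955), whose product with BARD1 forms the ubiquitin ligase that promotes resection and recombinase loading, stood at 2.54, 1.87 and 2.1 CPM in normal brain, 13.5, 12.8 and 11.6 CPM in IDH1_R132H, 8.42, 22.1 and 17 CPM in IDH1WT and 5.48, 8.21 and 20.9 CPM in PDGFA tumours. Every tumour library was above every normal brain, from 5.48 CPM in PDGFA tumour 1 to 22.1 CPM in IDH1WT tumour 2, and the fit gave a log2 difference of 2.60 (SE 0.44, adjusted p = 0.016 by edgeR). Bard1 (ENSMUSG00000026196, chr1:71027498-71103146), the partner in that ligase, stood at 1.62, 1.87 and 1.31 CPM in normal brain, 7.9, 6.21 and 9.47 CPM in IDH1_R132H, 4.64, 8.66 and 8.28 CPM in IDH1WT and 1.79, 4.97 and 12.7 CPM in PDGFA tumours. PDGFA tumour 1 lay within the normal range and the other 8 tumours were above it, for a log2 difference of 2.16 (SE 0.51, adjusted p = 0.033 by edgeR). Rad54l (ENSMUSG00000028702, chr4:116094264-116123690), the translocase that helps the recombinase filament invade the template, stood at 2.54, 2.96 and 2.01 CPM in normal brain, 8.45, 10.2 and 9.47 CPM in IDH1_R132H, 5.5, 14.4 and 9.97 CPM in IDH1WT and 3.58, 4.97 and 16.5 CPM in PDGFA tumours. Its groups did not overlap, and a log2 difference of 1.88 (SE 0.47, adjusted p = 0.04 by edgeR) was the lowest of the 9 called differences. The calls of Rad54l and Exo1 were also lost when any 1 IDH1_R132H tumour, or IDH1WT tumour 2 or 3, was left out (edgeR adjusted p 0.051 to 0.073), and in limma on the deposited log2 values (adjusted p = 0.053 and 0.052). Bard1 was not called without IDH1_R132H tumour 2 (edgeR adjusted p = 0.054) or IDH1WT tumour 3 (0.052), and Fanca and Fanci were not called without IDH1_R132H tumour 2 (0.055 for both).

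Other mediators had estimates in the same direction that did not pass. Rad51ap1, which stimulates joint-molecule formation, stood at 1.04, 1.65 and 1.84 CPM in normal brain, 3.82, 3.66 and 3.75 CPM in IDH1_R132H, 3.31, 5.98 and 4.61 CPM in IDH1WT and 2.24, 2.16 and 5.8 CPM in PDGFA tumours. No tumour reached down to the normal range for this gene, yet a log2 difference of 1.35 (SE 0.37, adjusted p = 0.054 by edgeR) lay just outside the threshold. Rad54b, a related translocase, stood at 2.19, 1.65 and 1.05 CPM in normal brain, 5.04, 3.66 and 1.97 CPM in IDH1_R132H, 2.65, 7.07 and 4.61 CPM in IDH1WT and 2.91, 2.57 and 5.98 CPM in PDGFA tumours, with IDH1_R132H tumour 3 inside the normal range and a log2 difference of 1.31 (SE 0.43, adjusted p = 0.088 by edgeR). Its exons share 35.9% of their bases with the same-strand gene Fsbp and an antisense gene, and the table does not say to which gene reads there were given. Brca2, the protein that loads the recombinase, stood at 9.28 to 12.6 CPM in normal brain and at 12.3 to 30.4 CPM in tumours, with a log2 difference of 0.78 (SE 0.27, adjusted p = 0.11 by edgeR). Palb2, which bridges BRCA1 to BRCA2, had a log2 difference of 0.54 (SE 0.33, adjusted p = 0.34 by edgeR). Estimates for the recombinase paralogs, which stabilise the recombinase on DNA, were unlike each other. Rad51c had a log2 difference of 0.77 (SE 0.28, adjusted p = 0.12 by edgeR), Xrcc2 had a log2 difference of 0.63 (SE 0.27, adjusted p = 0.19 by edgeR), and Rad51d had a log2 difference of 0.00 (SE 0.15, adjusted p = 0.99 by edgeR) with a 95% interval of -0.31 to 0.32. Xrcc3 had the only negative estimate below -0.5, and its values are given with the tumour groups.

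For break sensing and end resection, 2 of 8 members were called higher and the median log2 fold change was 0.56. Brip1 (ENSMUSG00000034329, chr11:86058138-86201193), the BRCA1-associated helicase also known as FANCJ, stood at 0.693, 0.768 and 0.613 CPM in normal brain, 4.22, 5.19 and 7.1 CPM in IDH1_R132H, 2.85, 11 and 5.74 CPM in IDH1WT and 2.35, 3.07 and 9.61 CPM in PDGFA tumours. Normal brain held under 1 CPM in each library and the lowest tumour was 2.35 CPM, for a log2 difference of 3.0 (SE 0.59, adjusted p = 0.019 by edgeR). Exo1 (ENSMUSG00000039748, chr1:175880581-175913489), an exonuclease of long-range resection, stood at 0.808, 1.43 and 0.175 CPM in normal brain, 5.32, 3.76 and 4.93 CPM in IDH1_R132H, 3.45, 7.07 and 3.58 CPM in IDH1WT and 1.68, 1.99 and 8.43 CPM in PDGFA tumours. All tumours were above the normal brains, PDGFA tumour 1 by little, and the fit gave a log2 difference of 2.49 (SE 0.64, adjusted p = 0.045 by edgeR). Without normal brain 2 the estimate was 3.22 and was not called (edgeR adjusted p = 0.13). Blm, the helicase that dissolves crossed strands, stood at 6.7, 6.37 and 5.25 CPM in normal brain, 10.8, 8.65 and 9.87 CPM in IDH1_R132H, 8.81, 13.2 and 10.6 CPM in IDH1WT and 8.94, 9.12 and 14.9 CPM in PDGFA tumours. Its groups did not overlap, with a small spread in both, but a log2 difference of 0.78 (SE 0.21, adjusted p = 0.054 by edgeR) did not pass. Rbbp8, or CtIP, which starts resection, stood at 6.81, 5.93 and 5.86 CPM in normal brain, 9.4, 11.6 and 7.89 CPM in IDH1_R132H, 8.48, 14.9 and 13.4 CPM in IDH1WT and 6.71, 4.81 and 15 CPM in PDGFA tumours; both PDGFA tumours 1 and 2 were within or below the normal range and a log2 difference of 0.71 (SE 0.32, adjusted p = 0.2 by edgeR) did not pass.

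The break sensor had small estimates. Mre11a, its nuclease, had a log2 difference of 0.21 (SE 0.16, adjusted p = 0.47 by edgeR) with a 95% interval of -0.14 to 0.56. Rad50, its ATPase, had a log2 difference of 0.15 (SE 0.18, adjusted p = 0.66 by edgeR) with an interval of -0.24 to 0.53, and Nbn, its adaptor, had a log2 difference of 0.40 (SE 0.19, adjusted p = 0.22 by edgeR) with an interval of -0.01 to 0.81. The RecQ helicase Wrn had a log2 difference of -0.02 (SE 0.14, adjusted p = 0.96 by edgeR), with an interval of -0.31 to 0.28. These intervals leave out a change of 2-fold, that is 1 on the log2 scale, in either direction.

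Of the 9 members in the Fanconi core, substrate pair and ubiquitin transfer, 2 were called higher, and the 9 had a median log2 fold change of 0.41. Fanconi genes placed in other role classes, such as Brip1 (FANCJ), are not counted here. Fanca (ENSMUSG00000032815, chr8:123268300-123318576), the scaffold of the core complex, stood at 1.96, 2.63 and 1.58 CPM in normal brain, 10.1, 7.73 and 6.71 CPM in IDH1_R132H, 4.04, 13.4 and 7.43 CPM in IDH1WT and 4.92, 4.39 and 12.5 CPM in PDGFA tumours. Each tumour exceeded each normal brain, for a log2 difference of 1.94 (SE 0.45, adjusted p = 0.031 by edgeR). Fanci (ENSMUSG00000039187, chr7:79391929-79450264), a member of the ubiquitinated substrate pair, stood at 1.62, 0.549 and 0.613 CPM in normal brain, 3.95, 4.78 and 7.5 CPM in IDH1_R132H, 3.58, 10 and 5.65 CPM in IDH1WT and 1.68, 2.74 and 7.52 CPM in PDGFA tumours. The groups were separate by a narrow margin, since PDGFA tumour 1 was at 1.68 CPM and normal brain 1 at 1.62 CPM, and the fit gave a log2 difference of 2.48 (SE 0.57, adjusted p = 0.031 by edgeR). Without normal brain 1 the estimate was 3.10 and was not called (edgeR adjusted p = 0.11). Exons of Fanci share 16% of their bases with Polg, those of Rad54l 15.4% with Lrrc41 and those of Fanca 10.5% with Zfp276, all on the opposite strand, and the strand setting of the counting is not given. Exons of Brca1, Bard1, Brip1, Exo1 and Chek2 share none.

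Fancd2, the other member of the substrate pair, stood at 2.77, 5.27 and 3.5 CPM in normal brain, 7.22, 8.55 and 9.08 CPM in IDH1_R132H, 5.5, 14.1 and 12.4 CPM in IDH1WT and 5.59, 6.05 and 11.3 CPM in PDGFA tumours. Tumours and normal brains did not overlap, and a log2 difference of 1.19 (SE 0.34, adjusted p = 0.061 by edgeR) did not pass. Ube2t, the ubiquitin-conjugating enzyme of the pathway, stood at 1.85, 0.768 and 1.14 CPM in normal brain, 2.04, 2.85 and 2.57 CPM in IDH1_R132H, 1.99, 2.93 and 1.98 CPM in IDH1WT and 1.57, 1.74 and 4.08 CPM in PDGFA tumours, with PDGFA tumours 1 and 2 inside the normal range and a log2 difference of 0.95 (SE 0.38, adjusted p = 0.16 by edgeR). The remaining core members were nearer 0: Fancb had a log2 difference of 0.41 (SE 0.34, adjusted p = 0.5 by edgeR), Fancm, the translocase that anchors the complex, had a log2 difference of 0.16 (SE 0.14, adjusted p = 0.53 by edgeR), and Fancg had a log2 difference of 0.08 (SE 0.19, adjusted p = 0.84 by edgeR). Fancc had a log2 difference of -0.20 (SE 0.21, adjusted p = 0.6 by edgeR) and Fancl, the ubiquitin ligase subunit, had a log2 difference of -0.39 (SE 0.22, adjusted p = 0.31 by edgeR).

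Of the 5 checkpoint genes 1 was called, and the median log2 fold change was 0.80. Chek2 (ENSMUSG00000029521, chr5:110839979-110874145), the kinase activated by ATM, stood at 0.808, 1.43 and 0.788 CPM in normal brain, 3.41, 4.38 and 2.57 CPM in IDH1_R132H, 3.45, 5.73 and 4.7 CPM in IDH1WT and 1.79, 3.65 and 6.34 CPM in PDGFA tumours. Its lowest tumour, 1.79 CPM in PDGFA tumour 1, was above the highest normal brain at 1.43 CPM, and the fit gave a log2 difference of 1.98 (SE 0.42, adjusted p = 0.024 by edgeR). Chek1, the kinase activated by ATR, stood at 2.77, 2.2 and 1.93 CPM in normal brain, 6.95, 4.07 and 7.89 CPM in IDH1_R132H, 4.04, 5.98 and 6.59 CPM in IDH1WT and 2.46, 3.9 and 7.7 CPM in PDGFA tumours. PDGFA tumour 1 was the only tumour within the normal range, and a log2 difference of 1.25 (SE 0.36, adjusted p = 0.063 by edgeR) did not pass. Topbp1, an activator of ATR, stood at 22.6, 23.9 and 26.3 CPM in normal brain, 42.5, 38.8 and 46 CPM in IDH1_R132H, 33.7, 48.7 and 43.2 CPM in IDH1WT and 25.9, 33.4 and 69.2 CPM in PDGFA tumours; again only PDGFA tumour 1 was within the normal range, with a log2 difference of 0.80 (SE 0.25, adjusted p = 0.079 by edgeR). The upstream kinases had smaller estimates: Atm had a log2 difference of 0.43 (SE 0.19, adjusted p = 0.18 by edgeR) and Atr had a log2 difference of 0.21 (SE 0.18, adjusted p = 0.52 by edgeR) with an interval of -0.19 to 0.61.

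Among the nucleases 1 of 3 was called, and the median log2 fold change was 0.04. Eme1 (ENSMUSG00000039055, chr11:94644996-94653964), the partner subunit of the MUS81 endonuclease, was nearly absent from normal brain, with 0, 2 and 0 counts in the 3 libraries, and had 10, 8 and 9 counts in IDH1_R132H, 8, 14 and 14 counts in IDH1WT and 11, 16 and 34 counts in PDGFA tumours. The summed counts gave a tumour to normal ratio of 20.5, with a 95% exact interval of 5.56 to 171 that covers counting error only. The fit gave a log2 difference of 4.11 (SE 0.84, adjusted p = 0.022 by edgeR), and this estimate depends on the 2 counts of normal brain 2: without that library it was 6.80 (adjusted p = 0.097). Exons of Eme1 share 10.7% of their bases with genes on the opposite strand. Mus81, the catalytic partner, stood at 13.2, 13.6 and 16.1 CPM in normal brain, 8.99, 12.1 and 8.88 CPM in IDH1_R132H, 10.3, 12.6 and 11.7 CPM in IDH1WT and 20.2, 8.54 and 14 CPM in PDGFA tumours, and a log2 difference of -0.28 (SE 0.22, adjusted p = 0.47 by edgeR) did not pass. Slx4, the scaffold that holds several nucleases, stood at 33.7, 38 and 34.9 CPM in normal brain, 38.3, 38.9 and 28.8 CPM in IDH1_R132H, 27.2, 37.9 and 46.5 CPM in IDH1WT and 30.9, 32.5 and 48.8 CPM in PDGFA tumours. Its values overlapped throughout, with a log2 difference of 0.04 (SE 0.18, adjusted p = 0.91 by edgeR) and an interval of -0.36 to 0.45.

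None of the 3 alternative end-joining and PARP genes was called by edgeR, with 2 at an unadjusted p under 0.05 and a median log2 fold change of 0.33. Polq was called by DESeq2, by edgeR without the filter and by voom, and Parp1 by voom. Polq, the polymerase of microhomology-mediated joining, stood at 5.77, 5.27 and 4.11 CPM in normal brain, 13.6, 11.7 and 9.28 CPM in IDH1_R132H, 5.9, 18.8 and 16.2 CPM in IDH1WT and 7.83, 6.63 and 21.5 CPM in PDGFA tumours. All tumours were above the normal brains, IDH1WT tumour 1 by little, and a log2 difference of 1.29 (SE 0.42, adjusted p = 0.087 by edgeR) did not pass. Parp1, the sensor of strand breaks, stood at 56.8, 54.3 and 53.5 CPM in normal brain, 58.5, 78.3 and 66.7 CPM in IDH1_R132H, 62.4, 62.4 and 79.2 CPM in IDH1WT and 82.1, 55 and 78 CPM in PDGFA tumours; its tumour values overlapped the tight normal range and a log2 difference of 0.33 (SE 0.15, adjusted p = 0.19 by edgeR) did not pass. Helq, a helicase of the same repair network, had a log2 difference of -0.05 (SE 0.21, adjusted p = 0.91 by edgeR) with an interval of -0.51 to 0.40.

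**Figure D2:**
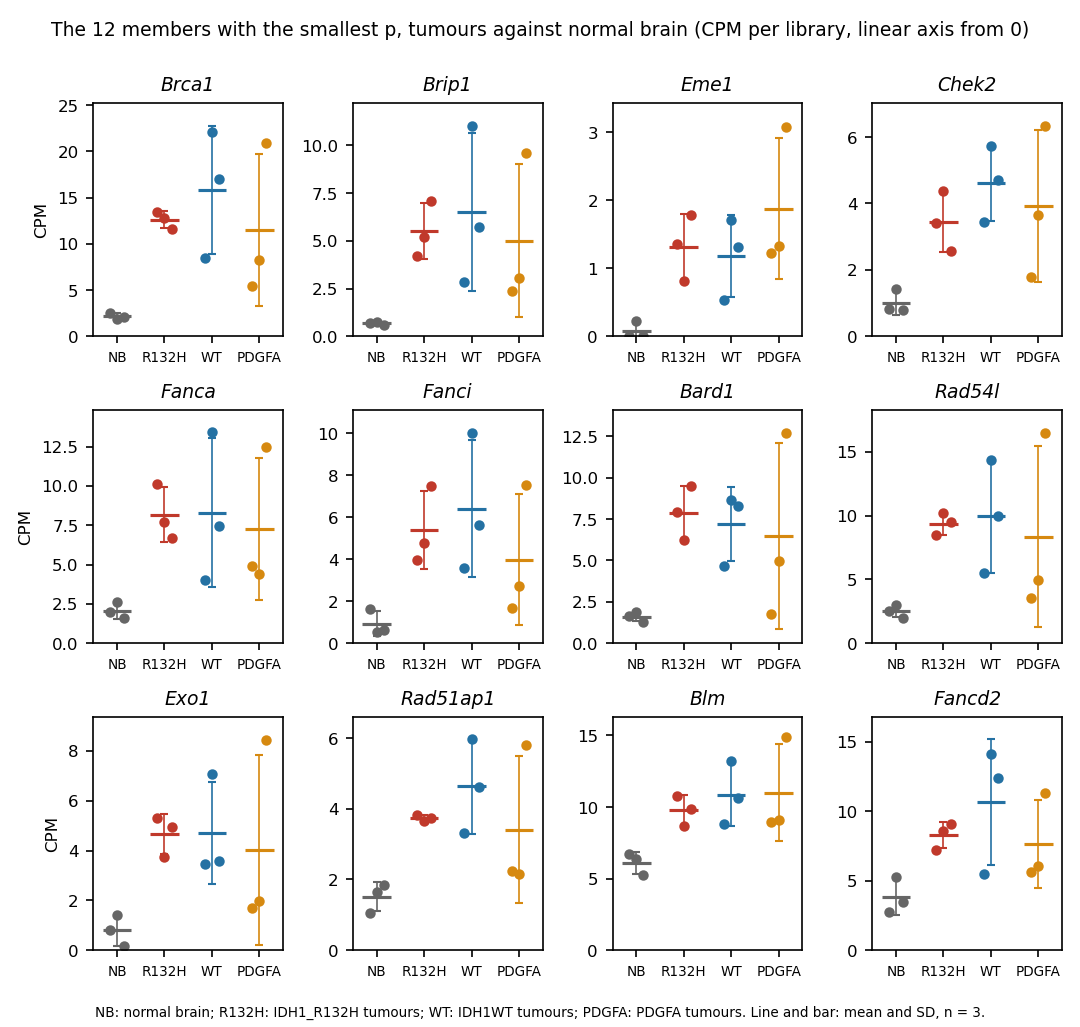
CPM (y axis, linear from 0) in each of the 12 libraries for the 12 members with the smallest p, 9 of them called, by group on the x axis, with group mean and SD (n = 3). The spread within the IDH1WT and PDGFA groups is wide, and PDGFA tumour 1 is often the lowest tumour point.

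Scaled by exon length, the members that rose were among the least abundant of the list in normal brain. Parp1 was the most abundant in normal brain at 10.4 CPM per kb of exon, followed by Slx4 at 4.64, Rad51d at 4.46, Nbn at 4.08 and Mus81 at 4.01. At the other end were Eme1 at 0.0265, Brip1 at 0.0927, Exo1 at 0.0954, Fanci at 0.16, Fanca at 0.235 and Brca1 at 0.254 CPM per kb, all of them called. In tumours Brca1 stood at 1.56 CPM per kb and moved from rank 34 to rank 17 of 39, while Parp1 remained first at 13.1 CPM per kb. The normal level is the denominator of the fold change, so a link between a low normal level and a call is partly built in. Of the called members, Eme1 (0, 2 and 0 counts in normal brain), Brip1 (6, 7 and 7) and Exo1 (7, 13 and 2) passed the low-count filter through tumour libraries. So did Fanci (14, 5 and 7) and Chek2 (7, 13 and 9). The normal brains alone would not have brought these members into the test. Differences between neighbouring ranks were not tested.

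**Figure D3:**
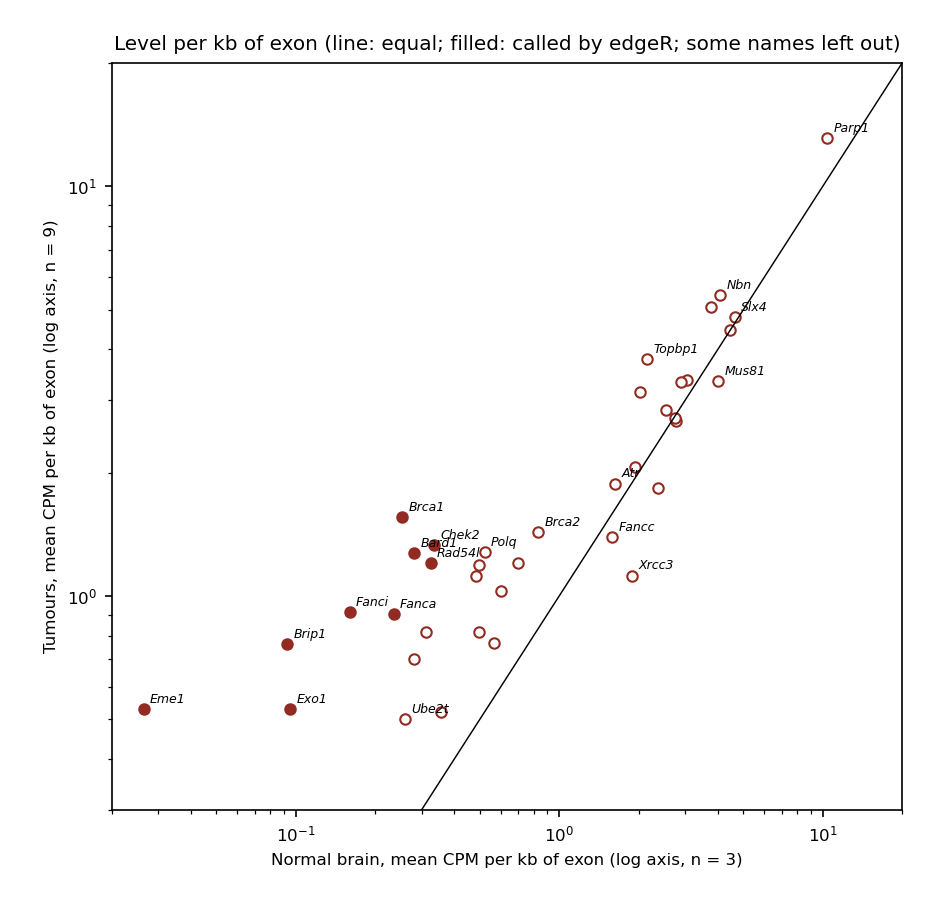
Mean CPM per kb of exon in tumours (y axis, log, n = 9) against normal brain (x axis, log, n = 3) for the 39 members, with the line of equality and filled points for the 9 called members. Called members lie to the left, at 0.0265 to 0.336 CPM per kb in normal brain, and the abundant members lie near the line. The normal level is also the denominator of the fold change that was tested.

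The 3 tumour groups were each set against the same 3 normal brains, so these comparisons share their controls and their values are given side by side. In IDH1_R132H tumours 7 members were called higher (background 4.83%): Brca1, Bard1, Brip1, Fanca, Fanci, Chek2 and Eme1. Xrcc3 was called lower (background 2.35%). At an unadjusted p under 0.05, 20 members were higher (background 14.2%) and 1 lower (background 11.4%). The libraries lay wholly above the normal brains for 21 members (background 19.4%) and wholly below for 2, Xrcc3 and Mus81 (background 18.8%). DESeq2 called 11 higher (background 8.85%), edgeR without the filter 13 (background 3.58% of 42503 unfiltered genes) and voom 23 (background 21.3%). With edgeR, 2 were called higher without IDH1_R132H tumour 1 (background 2.51%), 0 without tumour 2 (background 0.00532%, which is 1 gene) and 2 without tumour 3 (background 3.31%).

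In IDH1WT tumours 4 members were called higher (background 1.57%), namely Brca1, Brip1, Fanci and Chek2, and 0 lower by edgeR, DESeq2 or voom (background 0.152% in edgeR). At an unadjusted p under 0.05, 21 were higher (background 11.6%) and 0 lower (background 7.37%). The libraries lay above the normal brains for 24 members (background 17.4%) and below for 1, Mus81 (background 14.5%). DESeq2 called 14 higher (background 5.61%), edgeR without the filter 15 (background 2.73% of 42503 unfiltered genes) and voom 18 (background 10.2%). With edgeR, 10 were called without IDH1WT tumour 1 (background 3.05%), and 0 without IDH1WT tumour 2 or 3, where 0 of all tested genes were called higher.

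In PDGFA tumours edgeR called 0 members (backgrounds 0.258% higher and 0.0449% lower). At an unadjusted p under 0.05, 18 were higher (background 7.35%) and 0 lower (background 3.24%). The libraries lay above the normal brains for 14 members (background 8.23%) and below for 0 (background 7.54%). DESeq2 called 9 higher (background 2.37%), edgeR without the filter 11 (background 1.91% of 42503 unfiltered genes) and voom 4 (background 1.81%). Without PDGFA tumour 1, edgeR called 10 (background 3.59%), and the count was also 10 when IDH1_R132H tumour 3 was left out with it (background 4.32%).

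Side by side, the median log2 difference of the members from normal brain was 0.65 in IDH1_R132H, 0.78 in IDH1WT and 0.64 in PDGFA tumours. For Brca1 it was 2.54 (adjusted p = 0.019), 2.85 (adjusted p = 0.024) and 2.41 (adjusted p = 0.065) in that order by edgeR. For Brip1 it was 2.97, 3.20 and 2.85, and for Eme1 3.97, 3.82 and 4.54. Leaving out any 1 normal brain left 0 members called in each of these 3 comparisons by edgeR.

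Between tumour groups, no member was called in any of the 4 contrasts by edgeR, and 0 of 17812 genes were called, so a member count of 0 stands beside a background of 0 genes. At an unadjusted p under 0.05 there was 1 member in IDH1_R132H against IDH1WT (background 2.67%), 1 in IDH1_R132H against PDGFA (background 10.9%), 1 in IDH1_R132H against both other groups (background 6.44%) and 0 in IDH1WT against PDGFA (background 5.83%). In each case that member was Xrcc3. DESeq2 and voom called 0 members, but their shares of all genes are not given for these contrasts, so that count cannot be weighed. The log2 differences ran from -1.18 to 0.18 (median -0.15) for IDH1_R132H minus IDH1WT and from -1.42 to 0.42 (median -0.05) for IDH1_R132H minus PDGFA. They ran from -0.71 to 0.66 (median 0.13) for IDH1WT minus PDGFA.

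Xrcc3 (ENSMUSG00000021287, chr12:111803192-111813873), a recombinase paralog of the complex that acts late in recombination, stood at 4.85, 4.17 and 6.56 CPM in normal brain, 1.91, 1.53 and 1.18 CPM in IDH1_R132H, 4.97, 1.83 and 3.67 CPM in IDH1WT and 5.14, 4.56 and 2.9 CPM in PDGFA tumours. All IDH1_R132H libraries were below all normal brains and below all PDGFA libraries, while IDH1WT tumour 2, at 1.83 CPM, overlapped them. The IDH1_R132H levels rest on 14, 15 and 6 counts. The 6 counts came from IDH1_R132H tumour 3, with 46.1% of its counts in ribosomal-RNA-like loci. Against normal brain the log2 fold change was -1.73 (SE 0.40, 95% interval -2.61 to -0.86, edgeR adjusted p = 0.028), a 3.32-fold lower level. The call was lost without any 1 library of either group (adjusted p 0.055 to 0.11). Against IDH1WT the difference was -1.18 (SE 0.41, unadjusted p = 0.013, edgeR adjusted p = 1) and against PDGFA -1.42 (SE 0.41, unadjusted p = 0.0041, edgeR adjusted p = 0.32). Without the filter on low counts edgeR called the latter (adjusted p = 0.034), and no other alternative did. Exons of Xrcc3 share 0.436% of their bases with Klc1. Fancm was the other member whose IDH1_R132H libraries lay below all those of another tumour group, with edgeR log2 differences of -0.22 (unadjusted p = 0.23) against IDH1WT and -0.31 (unadjusted p = 0.11) against PDGFA. Such a separation downward was found for 1 member against IDH1WT (background 3.79%), 2 against PDGFA (background 7.25%) and 1 against both groups together (background 1.31%).

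**Figure D4:**
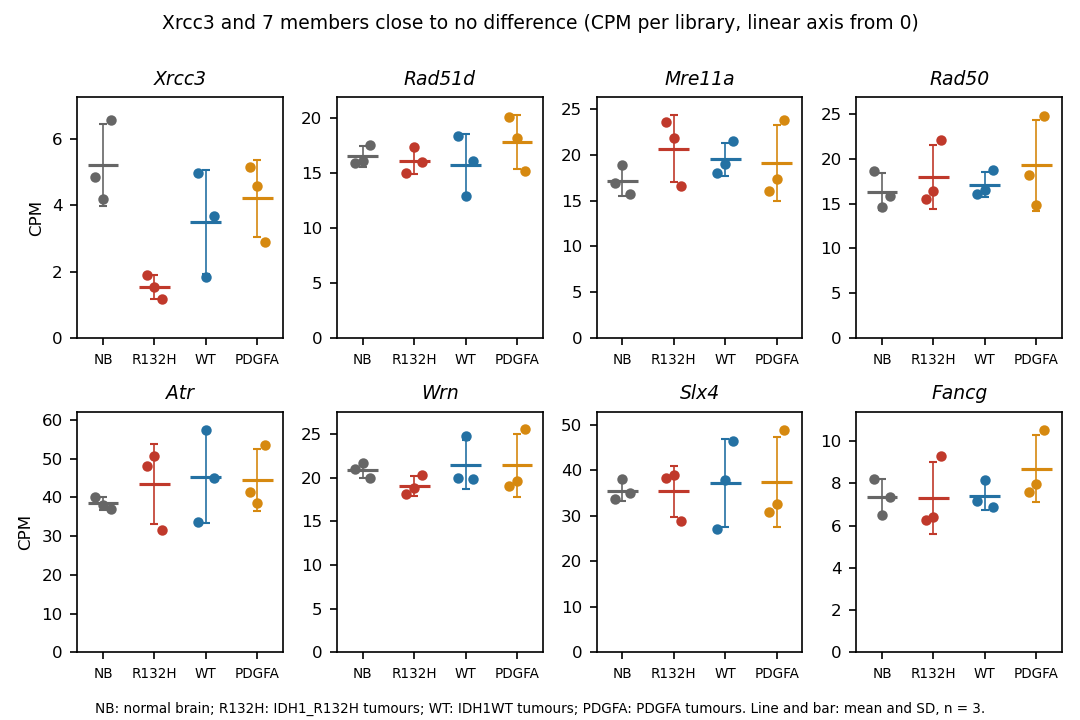
CPM (y axis, linear from 0) in each library for Xrcc3 and for 7 members close to no difference, by group on the x axis, with group mean and SD (n = 3). The IDH1_R132H points for Xrcc3 lie between 1.18 and 1.91 CPM, below the normal brains at 4.17 to 6.56 CPM, and the other 7 genes overlap in every group.

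Tumours of a group differed among themselves. Relative to the normal mean, the members had a median log2 level of 0.61, 0.60 and 0.50 in the IDH1_R132H libraries, 0.43, 1.03 and 0.76 in IDH1WT, and 0.28, 0.29 and 1.22 in PDGFA. PDGFA tumour 3 held the highest tumour level for 19 of 39 members, against 13.6% of all tested genes, and IDH1WT tumour 2 for 13, against 14.3%. PDGFA tumour 1 held the lowest for 13, against 23.3%. The summed level of 14 proliferation markers, such as Mki67 and Top2a, was 131, 195 and 798 CPM in the PDGFA tumours, 201, 545 and 464 CPM in IDH1WT, and 226, 298 and 423 CPM in IDH1_R132H. Within PDGFA and IDH1WT the tumour with the highest sum also had the highest member median, whereas within IDH1_R132H the tumour with the highest sum had the lowest. In the 3 normal brains it was 21.4 to 29.1 CPM. Of the 14 markers 12 were called higher in tumours, with a median log2 fold change of 3.79, and PDGFA tumour 3 was the highest tumour for 14 of 14. The part of proliferating cells in the members' differences was not tested.

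**Figure D5:**
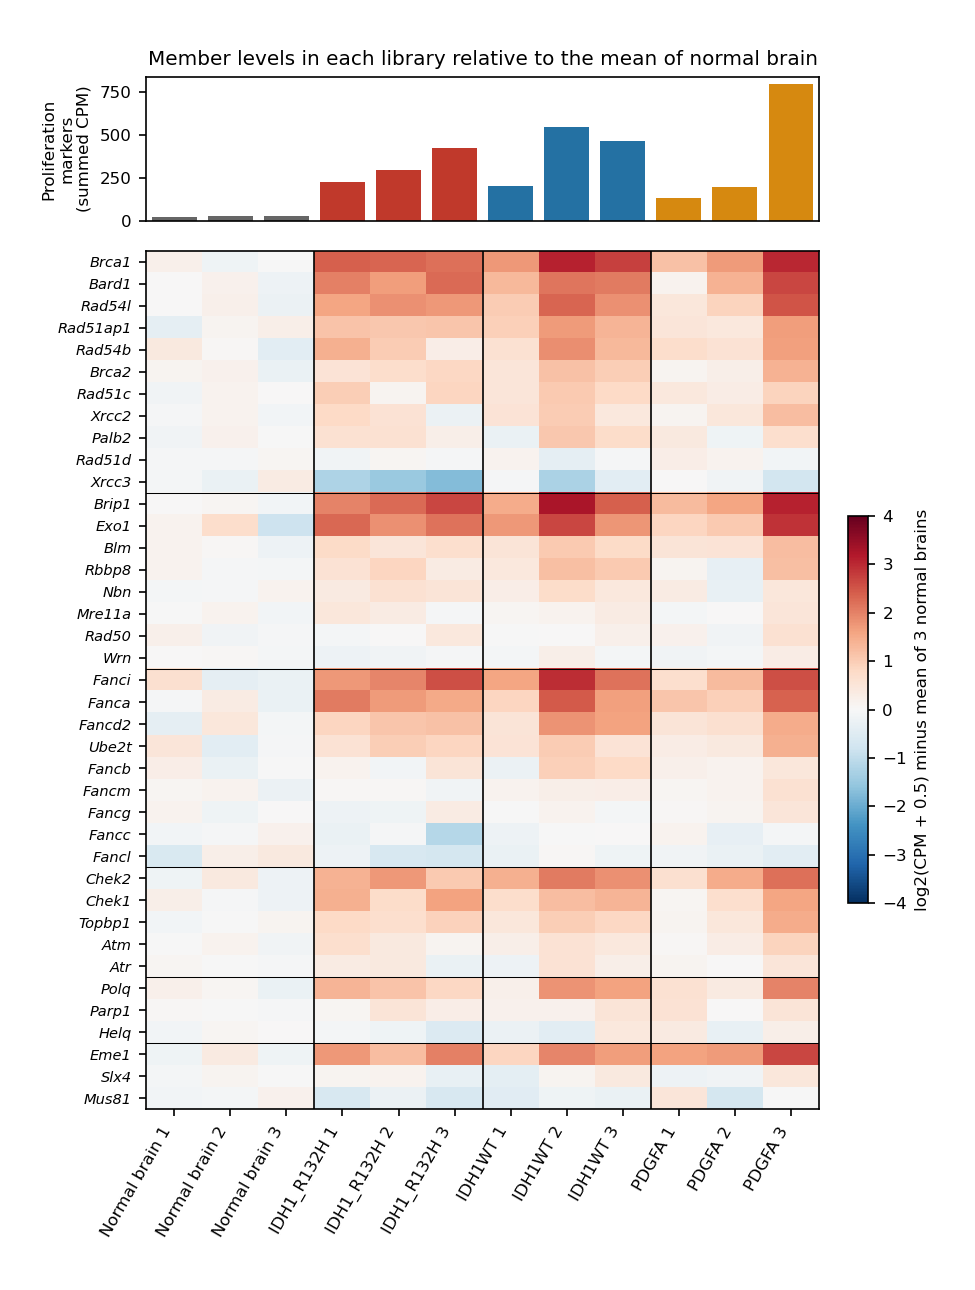
Log2(CPM + 0.5) minus the mean of the 3 normal brains (colour) for the 39 members (rows, grouped by role) in the 12 libraries (columns, by group). The columns of PDGFA tumour 3 and IDH1WT tumour 2 are the most raised (medians 1.22 and 1.03), and those of PDGFA tumours 1 and 2 the least raised among tumours (0.28 and 0.29).

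Other cell markers also differed with the tumours. Oligodendrocyte precursor markers summed to 485 to 502 CPM in normal brain and 2900 to 6095 CPM in IDH1_R132H, 1958 to 5808 in IDH1WT and 512 to 3871 in PDGFA tumours, and 7 of 8 were called higher. Neuron markers summed to 5959 to 6284 CPM in normal brain and 2669 to 6963 CPM in tumours, with 0 of 10 called by edgeR or DESeq2, 6 lower by voom (background 16.9%), and 2 lower in edgeR at an unadjusted p under 0.05 (background 10.3%). Endothelial markers summed to 118 to 136 CPM in normal brain and 164 to 288 CPM in tumours, and 4 of 6 were called higher. Microglia markers summed to 92.5 to 147 CPM in normal brain and to 23.1 CPM in PDGFA tumour 1, with 128 to 264 in the other tumours. No marker of these lists was at 0 in every library, and the T cell markers Cd3d and Trac were under 1 CPM in all. Their part in the members' values was not tested. Without PDGFA tumour 1 edgeR called 16 members higher in tumours (background 8.6%), and 19 when IDH1_R132H tumour 3 was also left out (background 10.2%), in both cases including the 9.

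Other repair lists had medians nearer 0. Their counts stand against the same shares of all tested genes as above. For calls these were 3.71% higher and 1.5% lower in edgeR, 8.17% higher in DESeq2, and 16.8% higher and 16.9% lower in voom. At an unadjusted p under 0.05 in edgeR they were 13.3% higher and 10.3% lower. DESeq2 called 2084 genes in both directions, 1456 of them higher, and its share of lower calls is not given separately. Of 55 tested genes of a further list of recombination, Fanconi and replication stress genes, 6 were called higher and 0 lower by edgeR in tumours. In that list 12 were higher and 2 lower at an unadjusted p under 0.05 in edgeR, with a median log2 fold change of 0.14. DESeq2 called 10 higher and 0 lower, and voom 16 higher and 1 lower. Among them Clspn, the adaptor of CHEK1 activation, rose by 3.60 (SE 0.51, edgeR adjusted p = 0.011) and Psmc3ip, an accessory factor of strand exchange, rose by 1.95 (SE 0.41, edgeR adjusted p = 0.024) on the log2 scale. Of 10 classical end-joining genes edgeR and DESeq2 called 0 and voom 2 lower, with 1 lower at an unadjusted p under 0.05 and a median of 0.09. Of 12 nucleotide excision genes edgeR and DESeq2 called 0 and voom 1 in each direction, with 1 higher at an unadjusted p under 0.05 and a median of 0.08. Of 15 base excision genes 1 was called higher, Neil3 (log2 fold change 4.26, SE 0.78, edgeR adjusted p = 0.017), a glycosylase. In that list 2 were higher and 0 lower at an unadjusted p under 0.05 in edgeR, with a median of 0.18. DESeq2 called 1 of them higher, and voom 1 in each direction. Of 7 mismatch repair genes 1 was called lower, Pms1 (-1.01, SE 0.19, edgeR adjusted p = 0.017). At an unadjusted p under 0.05 in edgeR 1 was higher and 1 lower, with a median of -0.08. DESeq2 called 1 of the 7 lower, and voom 1 in each direction.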

How the data were processed

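Total RNA from 12 fixed mouse tissue samples was sequenced. Per the submitters' processing notes, STAR 2.5.2b, Subread, featureCounts 1.5.1, DESeq2 1.16.1 and the GRCm38 build were used; the annotation, strand setting and handling of reads with several matches are not stated there. The authors deposited raw counts for 49671 genes and a table of log2 values for 23792 genes, which were used only as an alternative.

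The counts were fitted with edgeR 4.0.16 (R 4.3.3): TMM scaling, filterByExpr (minimum count 10, minimum total 15), a robust quasi-likelihood fit with 1 coefficient per group and 8 residual degrees of freedom, and Benjamini-Hochberg adjustment over 17812 genes, called under 0.05. The fit was tested on simulated data. Totals of 6507923 to 14277395 counts limit the precision of low genes; intervals on counts cover counting error only. Symbols, exons and overlaps came from GENCODE M21, which named 49412 genes, and promoters from RefSeq.

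Every member could be named. Values in every library are given for members called between tumour groups, for called members with the smallest p, and for at least 2 members per role that did not pass. Members and lists were chosen with earlier results of these data known. Alternatives were RLE scaling, DESeq2 1.42.0, no filter, limma 3.58.1 with voom and sample weights, limma on the log2 table, no ribosomal-RNA-like loci, each library left out, and both libraries that stood apart left out. A few genes of the wider lists and genotype are not reported here.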

Additional observations from a re-analysis of the deposited data

How the results depend on the processing

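No paired analysis was possible because the labels give no replicate numbers or pairing. For members called higher in tumours against normal brain (9), DESeq2 gave 17, no low count filter 16 and voom with sample weights 23 (and 1 lower). Omission of IDH1_R132H tumour 3 with PDGFA tumour 1 gave 19. Single omissions gave 0 to 16: 0 without any 1 normal brain, 4 without IDH1_R132H tumour 2 and 16 without PDGFA tumour 1. Calls over all genes, in both directions, were 2084 with DESeq2, 2204 without the filter, 5997 with voom and 2928 without both libraries. They were 0 to 3 without a normal brain, 367 without IDH1_R132H tumour 2 and 2536 without PDGFA tumour 1. For IDH1_R132H against normal brain (7 higher, 1 lower), DESeq2 gave 11 higher, no filter 13, voom 23, and omission of single libraries 0 to 2 higher and 0 lower. For IDH1WT against normal brain (4), DESeq2 gave 14, no filter 15, voom 18, the deposited log2 values 1, and single omissions 0 to 10. For PDGFA against normal brain (0), DESeq2 gave 9, no filter 11, voom 4, omission of both libraries 10, and single omissions 0 to 10. For IDH1_R132H against PDGFA, no filter gave 1 lower. Shares of all genes are not given for that count or for IDH1WT on the deposited log2 values. Every single omission leaves fewer libraries in the fit, and the cause of these shifts was not tested.

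Estimates that changed sign were all near 0 and not called. Over single omissions Rad51d ran from -0.05 to 0.05, Fancg from -0.0094 to 0.16, Slx4 from -0.04 to 0.10, Wrn from -0.07 to 0.0053 and Helq from -0.16 to 0.0027. Rad51d was also -0.02 without the filter, -0.0082 in the deposited log2 values, -0.0042 without ribosomal-RNA-like loci and -0.02 without both libraries, and Fancg was -0.00086 with voom. On the deposited log2 values, which the authors' transformation compresses, called members had smaller log2 differences, such as 1.21 for Brca1 and 0.50 for Eme1. Alternatives for Xrcc3 between groups were added after seeing the data. Low counts limit Eme1 most, and also limit Xrcc3 in IDH1_R132H tumours.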
